A study of Homo sapiens with 24 samples.

Results

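*PARP9*, *DTX3L*, *PARP14*, *PARP12*, *PARP10*, *PARP8*, *TIPARP*, *PARP3*, *PARP2* and *PARP1*, which are 9 genes of the PARP family and the ubiquitin ligase partner of PARP9, were followed through 24 RNA-Seq libraries of 2 human clear cell renal cell carcinoma (ccRCC) lines. These 10 genes were chosen by symbol among the 39321 genes of the deposited count table and not by their values. The libraries carry the labels of the established lines A498 and 786-O, with 12 libraries each, and lines are named here by those labels. Evidence on whether the labels of the 2 lines were exchanged was mixed and did not settle it, and an exchange would swap the lines' values and turn the sign of every difference between lines. Each line had 4 groups of 3 libraries. Cnsi cells were transfected with a non-targeting siRNA pool and left without IFNγ, Cnsi IFNγ cells had the same siRNA followed by IFNγ at 50 ng/mL for 24 hours, and PD-L1si and PD-L1si IFNγ cells had an siRNA pool against PD-L1 (*CD274*) in its place, all siRNA being at 20 nM for 24 hours before the treatment. All groups of both lines were therefore transfected cells, the sample labels call the PD-L1 groups knockout although their siRNA field names a PD-L1 siRNA, and nothing in the labels says whether the 3 replicates came from separate cultures, so that p-values measure the spread between these libraries only.

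PARP enzymes use NAD+ to place ADP-ribose on proteins or nucleic acids. PARP1 and PARP2 build chains of ADP-ribose at DNA breaks, and PARP3 adds single units there, whereas most of the other members add single units or, like PARP9, have little or no activity on their own. PARP9 and the E3 ligase DTX3L form a complex that acts in DNA repair and in interferon signaling, and PARP9, DTX3L, PARP10, PARP12 and PARP14 are known as products of interferon-stimulated genes, which STAT and IRF factors switch on through the interferon-stimulated response element (ISRE) and the gamma-activated sequence (GAS).

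*PARP9*, *DTX3L* and *PARP14* lie within 202917 bases of chromosome 3 (GRCh38). *PARP9* (chr3:122527924-122564577, minus strand) and *DTX3L* (chr3:122564338-122575203, plus strand) are head to head and overlap by 240 bases, of which 139 are exonic in both, and *PARP14* (chr3:122680839-122730840, plus strand) starts 105635 bases beyond the end of *DTX3L*. The start regions of these 3 genes, of *PARP12* (chr7:140023749-140062951, minus strand) and, for comparison, of *PARP1* (chr1:226360210-226408154, minus strand) and *PARP2* (chr14:20343615-20357904, plus strand) are shown because interferon-activated factors bind near gene starts. Each line gives the 160 bases before the RefSeq start and the first 4 bases from it (GRCh38.p14), 5′ to 3′ on the strand of the gene, and capitals mark matches to GAAA-NN-GAAA (the ISRE core, written here with hyphens) or TTCNNNGAA (GAS), searched on both strands.
PARP9: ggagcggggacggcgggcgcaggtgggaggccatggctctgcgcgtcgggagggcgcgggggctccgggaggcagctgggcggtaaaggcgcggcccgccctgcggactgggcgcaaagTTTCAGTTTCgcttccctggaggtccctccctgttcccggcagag
DTX3L: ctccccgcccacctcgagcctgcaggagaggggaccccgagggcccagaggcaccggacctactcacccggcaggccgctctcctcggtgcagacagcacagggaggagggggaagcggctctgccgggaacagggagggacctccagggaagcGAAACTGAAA
PARP14: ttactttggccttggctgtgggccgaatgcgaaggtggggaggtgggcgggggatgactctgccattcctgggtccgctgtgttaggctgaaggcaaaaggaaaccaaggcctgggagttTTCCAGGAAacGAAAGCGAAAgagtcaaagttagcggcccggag
PARP12: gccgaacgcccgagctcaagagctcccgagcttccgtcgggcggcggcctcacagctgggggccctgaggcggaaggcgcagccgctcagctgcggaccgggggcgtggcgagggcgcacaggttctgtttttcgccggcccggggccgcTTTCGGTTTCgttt
PARP1: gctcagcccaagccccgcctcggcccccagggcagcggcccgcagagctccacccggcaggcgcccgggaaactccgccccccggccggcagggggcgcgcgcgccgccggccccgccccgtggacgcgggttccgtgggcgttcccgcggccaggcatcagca
PARP2: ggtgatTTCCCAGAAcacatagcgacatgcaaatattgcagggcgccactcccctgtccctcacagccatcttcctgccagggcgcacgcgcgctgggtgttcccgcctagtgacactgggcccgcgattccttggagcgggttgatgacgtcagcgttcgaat

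The *PARP9* stretch is chr3:122564297-122564460 and the *DTX3L* stretch is chr3:122564178-122564341, and the capitals in both are the same 10 bases of the genome, chr3:122564332-122564341, read from opposite strands. They begin 41 bases before the *PARP9* start and 6 bases before the *DTX3L* start. RefSeq gives a second *PARP9* window (chr3:122564735-122565034), which held neither motif, and the stretch shown belongs to the other one. *PARP14* (chr3:122680679-122680842) had a GAS match 40 bases and an ISRE match 29 bases before its start, and *PARP12* (chr7:140062948-140063111) had an ISRE match that ended at the base before its start. *PARP1* (chr1:226408090-226408253) had neither, and *PARP2* (chr14:20343475-20343638) had a GAS match 154 bases before its start. Windows of 300 bases (250 before and 50 after the start) were searched for 9 members. Of these 9, 4 held the ISRE letters, where 4.376% of all 27305 genes did, and 2 held the GAS letters, where 9.376% of all genes did. A gene was counted if any of its windows held the letters. *PARP3*, *PARP8* and *TIPARP* had no match in their windows, and *PARP10* was not searched. A match is a run of letters and was not tested as a binding site.

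The total counts ran from 19256316 to 30350461 per library, and counts varied between replicates beyond sampling noise. IFNγ raised *CD274* by 5.25 (log2, SE 0.069) in Cnsi A498-labelled libraries and by 3.89 (SE 0.089) in 786-O-labelled libraries, and PD-L1 siRNA lowered it under IFNγ by a log2 change of -2.81 and -0.94, respectively (all with edgeR adjusted p-values of at most 6.722e-10). Of 7 renal epithelial and carcinoma markers, 7 had counts in A498-labelled libraries and 6 in 786-O-labelled libraries, and their summed level was higher with IFNγ (4392 to 4572 CPM without and 5427 to 5516 CPM with it in Cnsi A498-labelled libraries, and 3846 to 4090 CPM and 6039 to 6500 CPM in 786-O-labelled libraries), where CPM is the count scaled to library size, by TMM within a line. The summed level of 3 T cell markers was at most 0.1075 CPM and that of 3 macrophage markers at most 0.8844 CPM in any library. The summed level of 3 endothelial markers was higher with IFNγ in Cnsi 786-O-labelled libraries (0.1072 to 0.2238 CPM without and 0.6305 to 0.8509 CPM with it), through *PECAM1* (log2 fold change 2.13, edgeR adjusted p = 3.658e-05), while *VWF* was at 0 in all 12 and *CDH5* at most at 0.03583 CPM, and in A498-labelled libraries the sum was at most 0.03988 CPM. The 2 fibroblast markers were at 0 in all 786-O-labelled libraries, and in Cnsi A498-labelled libraries their sum was lower with IFNγ (1.829 to 2.233 CPM without and 0.7217 to 0.7755 CPM with it), through *COL1A1* (log2 fold change -1.44, edgeR adjusted p = 3.498e-07), with *DCN* at most at 0.1055 CPM. The part of these markers in the IFNγ results was not tested. In 786-O-labelled libraries, *PARP8* and *PAX2* were listed at 0 in all 12, and such zeros were found for 1475 genes with over 1000 counts summed over the A498-labelled libraries, and these zeros were not read as absence of expression.

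With control siRNA, IFNγ raised *PARP9*, *DTX3L*, *PARP14*, *PARP12*, *PARP10* and *PARP3* in the libraries of both labels and *PARP8* in A498-labelled libraries, by 2.13-fold to 12.6-fold. A gene was counted as changed at an adjusted p-value under 0.05 in edgeR's quasi-likelihood test, adjusted over all genes, and an absolute log2 fold change over 0.5. Shares of all genes tested are at both thresholds together in edgeR, and none is given for an unadjusted p-value. In A498-labelled libraries, 7 of 10 members rose, where 18.2% of all 20916 genes tested rose, and 1 member, *PARP1*, fell, where 18.5% of all genes fell. In 786-O-labelled libraries, 6 of 9 members rose, where 11.1% of 21209 genes did, and 0 fell in edgeR, where 7.39% of all genes did (7 of 9 had an unadjusted p under 0.05, all of them higher, and DESeq2 called 6). The median log2 fold change of the members was 1.71 and 1.37, beside -0.03 and 0.00 over all genes.

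**Figure D1:**
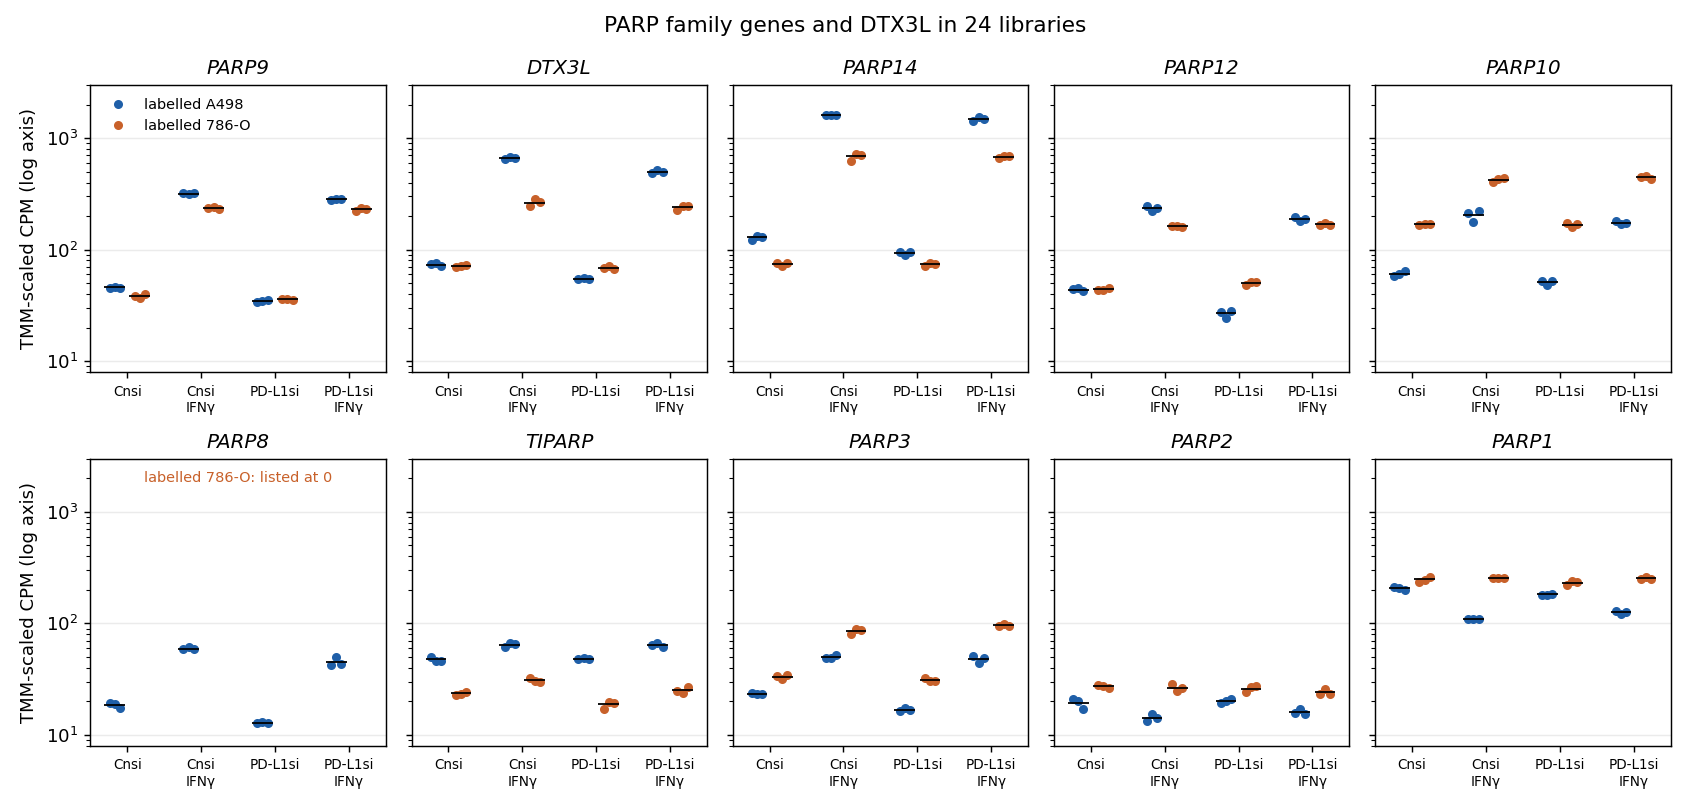
Level of each member in every library (points, TMM-scaled CPM on a log axis) by group, with the mean of 3 libraries as a bar, for A498-labelled (blue) and 786-O-labelled (orange) libraries. *PARP14* lies between 122.8 and 133.7 CPM in Cnsi and between 1606 and 1628 CPM in Cnsi IFNγ in A498-labelled libraries, while *PARP1* lies there between 109.5 and 110.2 CPM in Cnsi IFNγ and between 220.1 and 262.3 CPM in all 786-O-labelled libraries.

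*PARP14*, a large transferase with macrodomains, had the largest change of the 10 members in both lines. In A498-labelled libraries it was at 122.8, 133.7 and 129.8 CPM in Cnsi and at 1613, 1606 and 1628 CPM in Cnsi IFNγ, and in 786-O-labelled libraries at 75.64, 71.31 and 76.02 CPM and at 626.4, 727.5 and 713.3 CPM. The groups with and without IFNγ did not overlap, and the log2 fold change was 3.65 (SE 0.044) and 3.21 (SE 0.057).

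*PARP9*, whose macrodomains read ADP-ribose, rose from 45.26, 46.64 and 45.57 CPM to 321.6, 314.8 and 319 CPM in A498-labelled libraries and from 38.27, 37.07 and 40.05 CPM to 235.6, 241.3 and 233.4 CPM in 786-O-labelled libraries. Its log2 fold change was 2.80 (SE 0.042) and 2.62 (SE 0.048). *DTX3L*, which starts at the opposite strand of the same ISRE match, was at 74.17, 75.87 and 70.73 CPM in Cnsi and at 645.8, 673 and 668.2 CPM in Cnsi IFNγ in A498-labelled libraries. In 786-O-labelled libraries it was at 69.41, 71.85 and 73.56 CPM in Cnsi and reached 244.5, 283.2 and 266.6 CPM. The *DTX3L* log2 fold changes were 3.17 (SE 0.043) and 1.89 (SE 0.054), so that all IFNγ libraries lay above all libraries without it in both lines, with a wider step in A498-labelled libraries.

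The 2 genes of the shared start region therefore did not keep one proportion. The count of *DTX3L* divided by that of *PARP9* in the same library went from 1.61 ± 0.047 (SD, n = 3) in Cnsi to 2.08 ± 0.066 in Cnsi IFNγ in A498-labelled libraries, and from 1.86 ± 0.066 to 1.12 ± 0.071 in 786-O-labelled libraries. The replicates of the IFNγ and untreated groups did not overlap in either line, and the ratio moved in opposite directions. With PD-L1 siRNA it went from 1.59 ± 0.028 to 1.77 ± 0.028 and from 1.93 ± 0.051 to 1.05 ± 0.023, in the same directions. An exact permutation test of 3 against 3 libraries cannot go below 0.10, so no test is given for these ratios, and the reads of the 139 shared exonic bases were assigned by strand.

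**Figure D2:**
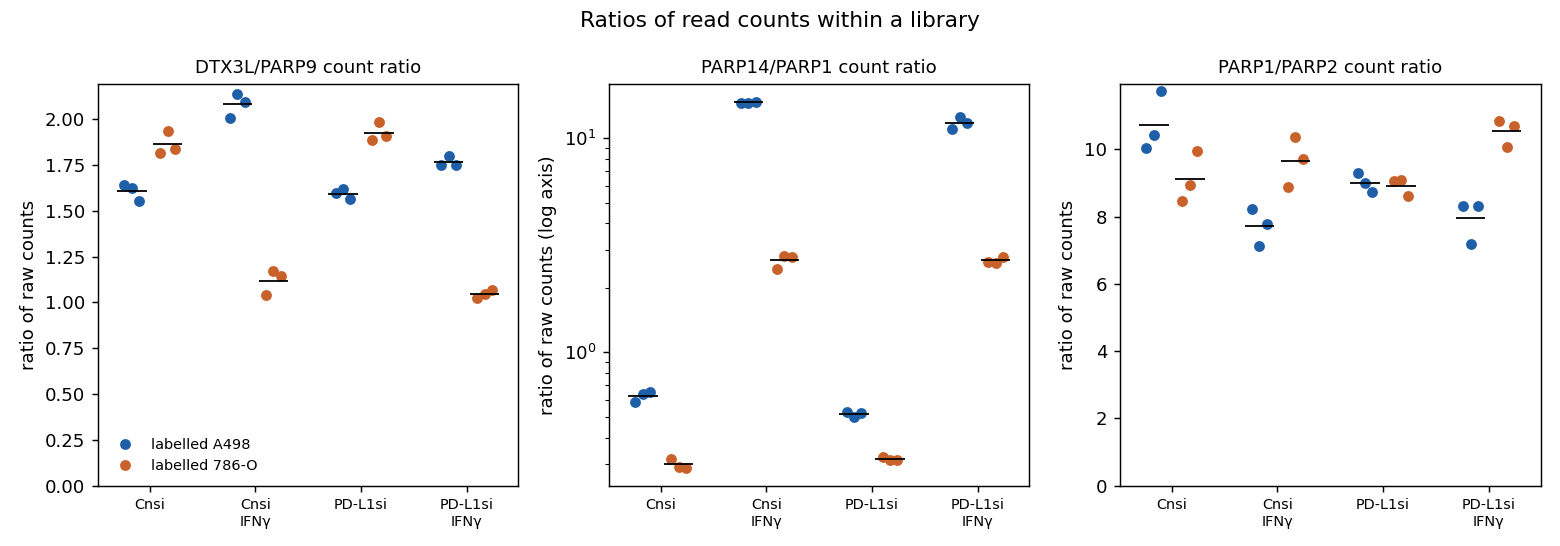
Ratio of the raw counts of 2 genes in the same library (points, with the group mean as a bar) for *DTX3L* to *PARP9*, *PARP14* to *PARP1* (log axis) and *PARP1* to *PARP2*, by group. With IFNγ the *DTX3L* to *PARP9* ratio is higher in A498-labelled libraries (2.08 against 1.61 with control siRNA) and lower in 786-O-labelled libraries (1.12 against 1.86).

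*PARP12*, a mono-ADP-ribosyltransferase with zinc fingers, was at 44.22, 44.93 and 42.66 CPM in Cnsi and at 246.5, 223.5 and 236.3 CPM in Cnsi IFNγ in A498-labelled libraries, and at 43.71, 43.32 and 45.68 CPM and 162.1, 162 and 160.7 CPM in 786-O-labelled libraries. Its log2 fold change was 2.42 (SE 0.050) and 1.87 (SE 0.048), and no treated library overlapped an untreated one. *PARP10*, a mono-ADP-ribosyltransferase, rose by 1.74 (SE 0.075) from 57.66 to 65.07 CPM without IFNγ to 175.5 to 224.3 CPM with it in A498-labelled libraries, where replicate 2 was the lowest of the treated libraries. In 786-O-labelled libraries it was at 165.6 to 170.5 CPM without IFNγ and rose by 1.33 (SE 0.048) to 405.8 to 438.6 CPM. Its annotated exons share 324 bases with *GRINA* and 197 with *SPATC1* on the other strand.

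*PARP8*, a less studied transferase, rose by 1.68 (SE 0.059) in A498-labelled libraries, from 17.62 to 19.18 CPM to 58.65 to 61.11 CPM. *TIPARP*, known as a target of the aryl hydrocarbon receptor, was at 46.09 to 50.2 CPM without IFNγ and at 61.62 to 66.62 CPM with it in A498-labelled libraries, and at 23.05 to 24.52 CPM and 30.03 to 32.17 CPM in 786-O-labelled libraries. The groups did not overlap in either line, but the log2 fold changes, 0.44 (SE 0.049, edgeR adjusted p = 1.149e-09) and 0.39 (SE 0.066, adjusted p = 2.732e-05), were under the fold threshold.

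The 3 genes of the DNA damage response did not move as one group. *PARP3* was at 23.57, 23.5 and 23.28 CPM in Cnsi and at 49.17, 49.17 and 51.91 CPM in Cnsi IFNγ in A498-labelled libraries, and at 34.08, 31.89 and 34.26 CPM and 80.61, 89.64 and 88.19 CPM in 786-O-labelled libraries. It rose by 1.09 (log2, SE 0.056) and 1.37 (SE 0.054) without either motif in its RefSeq window. *PARP1*, the main source of poly(ADP-ribose) after DNA damage, was at 210.3, 209 and 198.5 CPM in Cnsi and at 110.1, 109.5 and 110.2 CPM in Cnsi IFNγ in A498-labelled libraries, a log2 fold change of -0.91 (SE 0.040, edgeR adjusted p = 1.58e-20). In bulk RNA, less *PARP1* RNA per cell and fewer cells that express it cannot be told apart. In 786-O-labelled libraries it was at 237.1, 244.9 and 262.3 CPM and at 254.7, 257.3 and 255.1 CPM, with overlapping groups and a log2 fold change of 0.04 (95% interval -0.05 to 0.14, adjusted p = 0.5175).

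*PARP2*, which acts beside PARP1, was at 20.93, 20.08 and 16.94 CPM in Cnsi and at 13.37, 15.39 and 14.15 CPM in Cnsi IFNγ in A498-labelled libraries. Its log2 fold change of -0.43 (SE 0.077, edgeR adjusted p = 8.009e-06) was under the fold threshold, and it became -0.51, past it, without Cnsi replicate 3. In 786-O-labelled libraries it was at 28.07, 27.38 and 26.4 CPM and at 28.66, 24.82 and 26.28 CPM, with overlapping groups and a log2 fold change of -0.04 (95% interval -0.17 to 0.10, adjusted p = 0.7128).

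**Figure D3:**
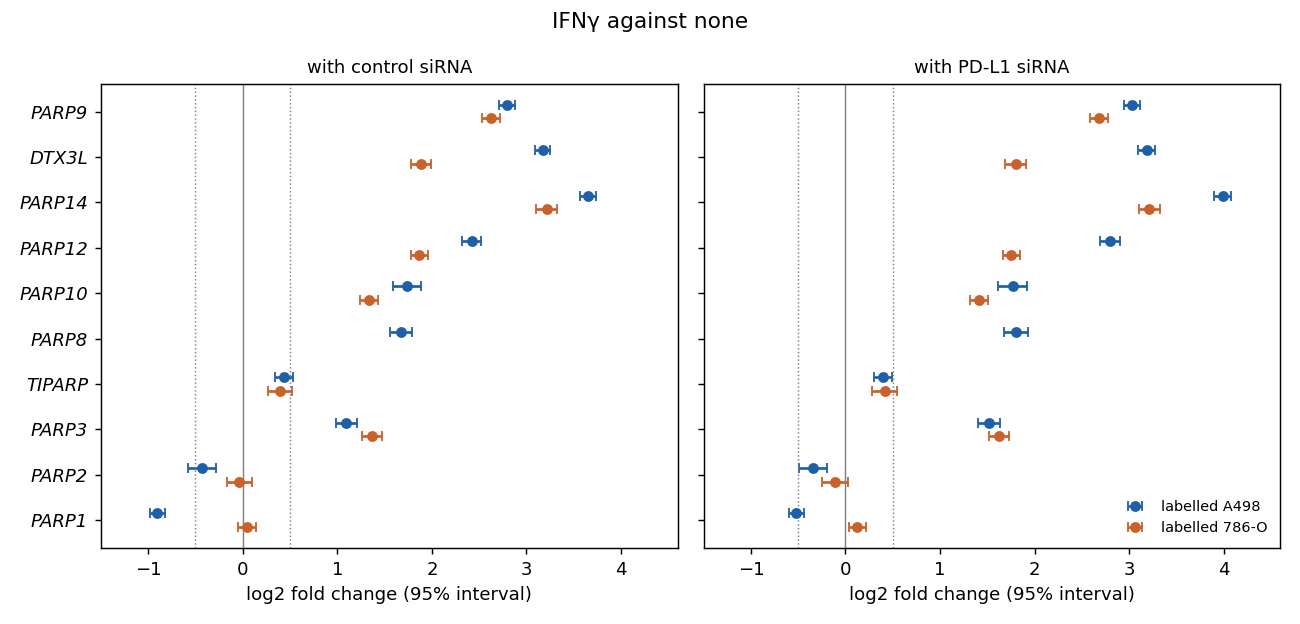
Log2 fold change of each member with IFNγ against none (points, with 95% intervals), with control siRNA and with PD-L1 siRNA, for A498-labelled (blue) and 786-O-labelled (orange) libraries. Dotted lines mark the fold threshold of 0.5. *PARP14* is farthest to the right in all 4 comparisons, and *PARP1* lies left of 0 only in A498-labelled libraries.

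To set the interferon-linked members against *PARP1* and *PARP2* in the same libraries, the count of either gene was used in place of the library size. In A498-labelled libraries, *PARP14* rose by 4.55 (log2, SE 0.056) relative to *PARP1* and by 4.07 (SE 0.11) relative to *PARP2*, and *DTX3L* by 4.08 (SE 0.053) and 3.60 (SE 0.11). In 786-O-labelled libraries, the *PARP14* values were 3.17 (SE 0.062) and 3.26 (SE 0.10), and the *DTX3L* values were 1.84 (SE 0.059) and 1.93 (SE 0.096). In reads, *PARP14* had 0.626 ± 0.037 (SD, n = 3) counts per *PARP1* count in Cnsi and 14.7 ± 0.061 in Cnsi IFNγ in A498-labelled libraries, and 0.300 ± 0.016 and 2.70 ± 0.20 in 786-O-labelled libraries. Relative to *PARP1*, 8 of 9 members were called higher in A498-labelled libraries, where 65.1% of all genes were, and 6 of 8 in 786-O-labelled libraries, where 9.84% were. Relative to *PARP2* the counts were again 8 of 9 and 6 of 8, where 37.9% and 11.9% of all genes were called higher. The noise of the reference gene is shared by every gene in these fits, so no p-value is given for them. The SEs and the called counts come from the same fits and carry that limit. Relative to *PARP1* and *PARP2*, the median log2 fold change of all genes was 0.87 and 0.394 in A498-labelled libraries. In 786-O-labelled libraries it was -0.0405 and 0.045. *TIPARP* was called higher only in A498-labelled libraries, at 1.34 and 0.86, and was under the fold threshold against library size.

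The count ratio of *PARP1* to *PARP2* moved far less. It was 10.7 ± 0.88 (SD, n = 3) in Cnsi and 7.71 ± 0.56 in Cnsi IFNγ in A498-labelled libraries, without overlap, and 9.11 ± 0.76 and 9.65 ± 0.74 in 786-O-labelled libraries, with overlap.

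Between genes, levels were compared as CPM per kilobase, and the order depended on the length taken for a gene. Over all annotated exons, *DTX3L* (12.8 ± 0.45 CPM per kilobase, SD, n = 3) and *PARP14* (12.5 ± 0.54) led Cnsi A498-labelled libraries with overlapping replicates, and *PARP10* (27.9 ± 0.42) led 786-O-labelled libraries, followed by *PARP1* (13.5 ± 0.70). With the length of the canonical transcript, which is 3978 bases for *PARP1* where all of its annotated exons cover 18399, *PARP1* led in both, at 51.8 ± 1.6 and 62.4 ± 3.2 CPM per kilobase. With IFNγ, *PARP14* led in A498-labelled libraries with either length, at 157.2 ± 1.1 over all exons, followed by *DTX3L* at 114.8 ± 2.5, *PARP12* at 42.7 ± 2.1, and *PARP9* (35.6 ± 0.39) and *PARP10* (33.9 ± 4.2), which overlapped. In 786-O-labelled libraries, *PARP10* (70.4 ± 2.8) and *PARP14* (67.1 ± 5.3) overlapped at the top over all exons, and *DTX3L* followed at 45.9 ± 3.4. With the canonical length, *PARP10* led there without overlap at 121.2 ± 4.9, followed by *PARP14* at 89.6 ± 7.1. *DTX3L* then came after *PARP9*, *PARP1* and *PARP12*.

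The IFNγ effect was then compared between the lines by fitting all 24 libraries together, as the effect in 786-O-labelled libraries minus that in A498-labelled libraries. The lines were sequenced on different instruments, so that line and instrument cannot be told apart, and the signs below rest on the line labels. The difference was past the threshold for 3 of 9 members, where 21.2% of 24126 genes were. Members were kept only if tested in both lines, while that share also includes genes tested in a single line. It was -1.34 (log2, SE 0.075, edgeR adjusted p = 3.22e-21) for *DTX3L* and -0.61 (SE 0.076, adjusted p = 2.48e-09) for *PARP12*, both with the smaller rise in 786-O-labelled libraries. It was 0.90 (SE 0.070, adjusted p = 8.075e-16) for *PARP1*, which fell only in A498-labelled libraries. *PARP14* (-0.49, SE 0.075) and *PARP10* (-0.46, SE 0.083) were under the fold threshold, and so were *PARP9* (-0.23), *PARP3* (0.22), *PARP2* (0.34) and *TIPARP* (-0.10). Only *TIPARP* had an adjusted p-value above 0.05.

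With PD-L1 siRNA, IFNγ raised the same 7 members in A498-labelled libraries, where 17.6% of all genes rose, and the same 6 in 786-O-labelled libraries, where 11% rose. *PARP14* rose by 3.99 (log2, SE 0.045) and 3.21 (SE 0.057), *PARP9* by 3.03 (SE 0.043) and 2.68 (SE 0.049), and *DTX3L* by 3.18 (SE 0.044) and 1.80 (SE 0.054). *PARP12* rose by 2.80 and 1.75, *PARP10* by 1.77 and 1.42, *PARP3* by 1.52 and 1.63, and *PARP8* by 1.80 in A498-labelled libraries. *TIPARP* (0.39 and 0.41) and *PARP2* (-0.34 and -0.11) were under the fold threshold. *PARP1* again fell in A498-labelled libraries, by a log2 change of -0.52 (SE 0.040), where 15.9% of all genes fell, and it was just under the fold threshold, at -0.50, without PD-L1si IFNγ replicate 2. In 786-O-labelled libraries its change was 0.13 (SE 0.048, edgeR adjusted p = 0.03838).

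Without IFNγ, PD-L1 siRNA lowered 2 of 10 members in A498-labelled libraries, where 5.6% of all genes were lowered. *PARP12* was at 27.9, 24.59 and 28.31 CPM, below all 3 Cnsi libraries, with a log2 fold change of -0.70 (SE 0.057, edgeR adjusted p = 2.48e-12), and *PARP8* was at 12.93, 13.14 and 12.71 CPM, with -0.53 (SE 0.071, adjusted p = 2.13e-07), which was -0.49 and under the threshold without PD-L1si replicate 3. *PARP3* (-0.48), *PARP14* (-0.46), *DTX3L* (-0.42), *PARP9* (-0.40), *PARP10* (-0.26) and *PARP1* (-0.18) had adjusted p-values under 0.05 with changes under the fold threshold, and *PARP2* (0.07) and *TIPARP* (0.03) did not pass the test. In 786-O-labelled libraries, 0 of 9 members were called by edgeR or by DESeq2, where 2.81% of all genes were called by edgeR. An unadjusted edgeR p under 0.05 was found for 2 members. These were *TIPARP*, at -0.33 (SE 0.068, adjusted p = 0.00152), and *PARP12*, at 0.18 (SE 0.049, adjusted p = 0.0142), which is the opposite sign to its change in A498-labelled libraries. The values of *PARP9* (-0.10), *PARP3* (-0.10), *PARP1* (-0.09), *PARP2* (-0.06), *DTX3L* (-0.05), *PARP14* (-0.01) and *PARP10* (-0.01) did not pass the test.

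Under IFNγ, 0 members were called between PD-L1 siRNA and control siRNA in either line by edgeR or by DESeq2, where 10.1% and 3.03% of all genes were called, and 7 of 10 and 3 of 9 had an unadjusted p under 0.05. In A498-labelled libraries, *DTX3L* was at 485.7, 515.3 and 501.6 CPM with PD-L1 siRNA, below the 645.8 to 673 CPM of Cnsi IFNγ, with a log2 fold change of -0.40 (SE 0.039, edgeR adjusted p = 1.18e-10). *PARP8* (-0.40), *PARP12* (-0.33), *PARP10* (-0.23), *PARP9* (-0.17) and *PARP14* (-0.12) had the same sign, and *PARP1* had the opposite one, at 0.20 (SE 0.041, adjusted p = 0.000144). *PARP2* (0.16), *PARP3* (-0.05) and *TIPARP* (-0.01) did not pass the test. In 786-O-labelled libraries the *DTX3L* value was -0.14 (SE 0.051, edgeR adjusted p = 0.0804), and *TIPARP* (-0.30) and *PARP3* (0.16) had adjusted p-values under 0.05 with changes under the fold threshold. *PARP2* (-0.14), *PARP9* (-0.04), *PARP14* (-0.01), *PARP1* (-0.01), *PARP10* (0.07) and *PARP12* (0.07) did not pass the test. The silencing was partial, as IFNγ still raised *CD274* with PD-L1 siRNA, by 4.92 (log2) in A498-labelled and 4.36 in 786-O-labelled libraries. The lack of calls was therefore not read as independence from PD-L1.

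**Figure D4:**
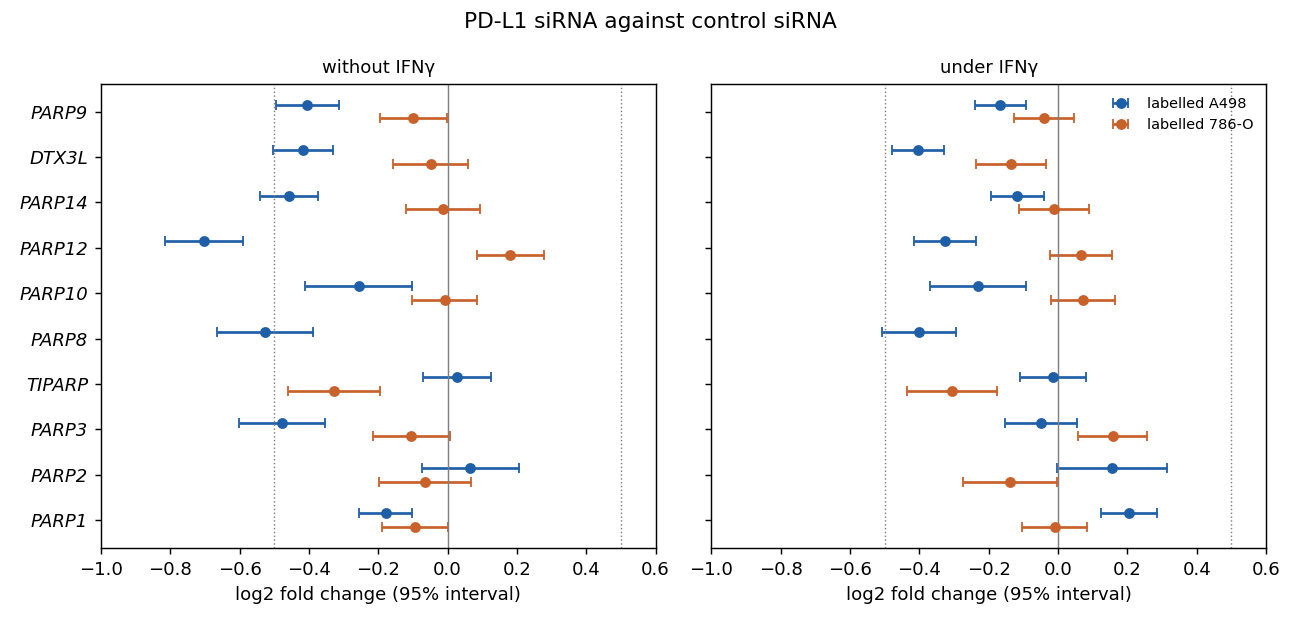
Log2 fold change of each member with PD-L1 siRNA against control siRNA (points, with 95% intervals), without IFNγ and under IFNγ, for A498-labelled (blue) and 786-O-labelled (orange) libraries. Dotted lines mark the fold threshold of 0.5. Without IFNγ, *PARP12* (-0.70) and *PARP8* (-0.53) lie beyond it in A498-labelled libraries, and no point does under IFNγ. An interval that leaves out 0 does not stand for a passed test.

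Whether PD-L1 siRNA changed the IFNγ effect itself was tested as an interaction, and 0 members were called in either line by edgeR or by DESeq2, where 2.45% and 0.099% of all genes were called, with 5 of 10 and 1 of 9 at an unadjusted p under 0.05. In A498-labelled libraries the largest values were those of *PARP3* (0.43, SE 0.082), *PARP1* (0.38, SE 0.057, edgeR adjusted p = 1.12e-05), *PARP12* (0.38, SE 0.073) and *PARP14* (0.34, SE 0.058). All 4 were positive, which stands for a larger rise, or for *PARP1* a smaller fall, with PD-L1 siRNA. PD-L1 siRNA changed *PARP3*, *PARP12* and *PARP14* by -0.48, -0.70 and -0.46 without IFNγ, and by -0.05, -0.33 and -0.12 under it. For these genes the larger rise therefore started from a lower level and did not reach a higher one. *PARP9* was at 0.24 (SE 0.059, adjusted p = 0.00698), and *PARP8* (0.12), *PARP2* (0.09), *PARP10* (0.03), *DTX3L* (0.01) and *TIPARP* (-0.04) did not pass the test. In 786-O-labelled libraries the members ran from -0.11 for *PARP12* to 0.26 for *PARP3*.

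The likeness of 2 genes was described by Pearson's r of log2(CPM + 1) over the 12 libraries of a line, averaged over both lines, among 17998 genes. The genes most like *PARP9* were *GBP1* (0.9996), *PARP14* (0.9994) and *TAP1* (0.9994), and those most like *PARP14* were *PARP9* (0.9994), *CTSS* (0.9993) and *IRF1* (0.9993). *DTX3L* ranked only 25 for *PARP9* (0.9982), *PARP10* 118, *PARP12* 127, *PARP3* 199 and *TIPARP* 1596. *PARP1* had r = -0.9499 with *PARP9* in A498-labelled libraries and 0.629 in 786-O-labelled libraries. *GBP1* encodes a guanylate-binding protein, *TAP1* a peptide transporter of antigen presentation and *CTSS* a lysosomal protease. The libraries with and without IFNγ form separate clusters that each r spans.

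Among other genes of ADP-ribosylation, *ZC3HAV1*, the zinc finger antiviral protein of the PARP family, and *ADPRS*, which removes ADP-ribose from serine, rose with IFNγ in both lines. *ZC3HAV1* rose by 1.46 (log2, SE 0.044) and 1.12 (SE 0.057), and *ADPRS* by 1.03 (SE 0.050) and 0.98 (SE 0.057). Of 8 other PARP genes, 5 of 8 tested rose in A498-labelled libraries and 2 of 6 tested in 786-O-labelled libraries, with a median log2 fold change of 0.71 and 0.26, where 18.2% and 11.1% of all genes rose. The counts that follow are small and stand beside 18.2% of all genes higher and 18.5% lower in A498-labelled libraries, and 11.1% higher and 7.39% lower in 786-O-labelled libraries, so nothing particular to these lists is read from them. Of the deltex ligases, relatives of DTX3L, 1 of 4 (*DTX2*) rose and 0 of 3 changed (1 at an unadjusted p under 0.05 in edgeR). Of the enzymes that remove ADP-ribose, 1 of 6 rose and 1 fell (*MACROD2*) in A498-labelled libraries, and 2 of 5 rose (*ADPRS* and *ADPRH*) in 786-O-labelled libraries. Of the DNA repair partners of PARP1, 2 of 6 rose (*APLF* and *POLB*) and 1 fell (*LIG3*) in A498-labelled libraries, and 0 of 5 changed in 786-O-labelled libraries (2 at an unadjusted p under 0.05 in edgeR).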

How the data were processed

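Poly(A) RNA of 24 libraries was measured by RNA-Seq. The authors trimmed the reads with Trimmomatic 0.36.6, aligned them to GRCh38 with HISAT2 2.1.0 and counted them on GENCODE genes with featureCounts 1.6.3 in its stranded mode, and the deposited values are raw counts, not normalized, on 39321 genes. Groups and replicate numbers came from the labels. Of the genes, 39148 were matched by Ensembl identifier to a later GENCODE release, from which names, positions and lengths were taken.

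A gene was tested where its counts in any 1 group of 3 libraries summed to 10 or more. Tests were run in R 4.3.3 with edgeR 4.0.16 (TMM, robust quasi-likelihood F-test in its older form), with the 12 libraries of a line in one model and Benjamini-Hochberg adjustment over all genes tested. Lines were compared in one model of 24 libraries. Intervals are 95% normal intervals from the standard error and do not use the degrees of freedom of the F-test, so they can be too narrow. For *PARP9* with PD-L1 siRNA and no IFNγ in 786-O-labelled libraries, the interval was -0.1962 to -0.0005721. The unadjusted edgeR p there was 0.06008. The standard error rests on the spread between replicates that edgeR estimated, with 3 replicates per group and total counts of 19256316 to 30350461 per library. All 10 members had counts in A498-labelled libraries and 9 in 786-O-labelled libraries. The rule for named genes took all 10 members, *CD274* and *IRF1* as checks, those genes of the other lists called the same way in both lines, and the 3 genes most like *PARP9* and *PARP14*. Other list genes that are named by symbol were chosen after their values were seen. The members, lists and tests were chosen with earlier results of these data known. Alternatives were DESeq2 1.42.0, relative log expression scaling, other count filters, protein-coding genes only, the newer edgeR fit, the compared groups only, a replicate block, other thresholds and the omission of each library. The canonical transcript length and the line comparison on genes tested in both lines were added after seeing the data. Some genes of the lists are not reported here. The code was tested on simulated data.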

Additional observations from a re-analysis of the deposited data

Results flagged for a closer look

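The IFNγ effect with control siRNA differed between 786-O-labelled libraries and A498-labelled libraries for 3 of 9 members, where 21.2% of 24126 genes differed. The difference itself was tested in one edgeR model of all 24 libraries. That share also includes genes tested in a single line, and nothing particular to the members is read from the count. The difference, labelled 786-O minus labelled A498 on the log2 scale, was -1.336 for *DTX3L*, -0.6057 for *PARP12* and 0.8955 for *PARP1*. Line and sequencing instrument cannot be told apart in these values. Their signs would turn if the labels of the 2 lines were exchanged, which was not settled here. No group had the 4 libraries needed to look for a single library that stands apart.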

How the results depend on the processing

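The members called with IFNγ, 8 and 6 of them with either siRNA in A498-labelled and 786-O-labelled libraries, stayed within 1.5 times those counts under every alternative run. The adjusted p-value alone gave 7 members for PD-L1 siRNA under IFNγ (0 with the fold threshold), 8 without IFNγ (2) and 5 for the interaction (0) in A498-labelled libraries, 2 and 2 for PD-L1 siRNA with and without IFNγ (0 and 0) in 786-O-labelled libraries, and 8 for the difference between lines (3). A log2 fold change over 1 gave 0 members for PD-L1 siRNA without IFNγ in A498-labelled libraries and 1 for the difference between lines, and among the other lists with IFNγ it gave 2 and 1 other PARP genes (5 and 2), 1 and 0 ADP-ribose erasers (2 and 2) in A498-labelled and 786-O-labelled libraries, and 0 PARP1 partners (3) in A498-labelled libraries. No share of all genes is given at these other thresholds, so nothing particular to the members or lists is read from these counts. Leaving out a library gave 1 to 2 members for PD-L1 siRNA without IFNγ in A498-labelled libraries, the 1 being without PD-L1si replicate 3. The difference between lines for *PARP14* and *PARP10*, under the fold threshold, reached it without 4 and 2 of the 24 libraries (ranges -0.54 to -0.43 and -0.56 to -0.40).

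The sign turned for 13 log2 fold changes, none of them called and the largest 0.06565 in size. For the interaction of *DTX3L* in A498-labelled libraries (0.01373) it was -0.005778 with DESeq2, -0.005783 with relative log expression, -0.002908 with no count filter and -0.007424 on protein-coding genes, and -0.01589 to 0.02634 over the libraries left out. For that of *PARP14* in 786-O-labelled libraries (0.00131) it was -0.005605 with DESeq2, -0.005616 with relative log expression, -0.01517 with filterByExpr, -0.01913 on protein-coding genes, and -0.06421 to 0.04057. For PD-L1 siRNA without IFNγ in 786-O-labelled libraries, *PARP10* (-0.00822) was at 0.0029 with filterByExpr, 0.01371 on protein-coding genes, 0.003241 in the compared groups only and -0.02136 to 0.03161, and *PARP14* at 0.00859 on protein-coding genes and -0.04317 to 0.0304. The others turned only when a library was left out. In A498-labelled libraries these were *TIPARP* (-0.04982 to 0.0173) and *PARP3* (-0.09382 to 0.007617) with PD-L1 siRNA under IFNγ, *PARP2* with PD-L1 siRNA and no IFNγ (-0.005074 to 0.125) and the interaction of *PARP10* (-0.08057 to 0.08475). In 786-O-labelled libraries they were *PARP2* with IFNγ and control siRNA (-0.09381 to 0.0124), *PARP14* (-0.07759 to 0.0272) and *PARP1* (-0.02891 to 0.004443) with PD-L1 siRNA under IFNγ, *PARP2* with PD-L1 siRNA and no IFNγ (-0.09551 to 0.00409) and the interaction of *TIPARP* (-0.05696 to 0.06555). The cause was not tested.

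Libraries with the same replicate number did not deviate together (mean correlation 0.0141 in both lines, from -0.0927 to 0.108), so the numbers were not used as pairs. The replicate block gave 8 and 6 members called with IFNγ and changed no count of members. The newer form of the fit could not be fitted relative to *PARP1* in A498-labelled libraries. The canonical transcript length, chosen after seeing the data, moved 68 of the levels per kilobase by more than the replicate SD.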
